A study of Mus musculus with 8 samples.

Results

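Of 140899 transcripts listed for mouse skin, 22926 (16.3%) were assembled from the sequenced reads, spliced, and left without a gene name. They were chosen as the rows whose identifier has the MSTRG prefix that the assembler StringTie gives to its own models, that hold 2 or more exons, and whose gene name is blank or a dot. They make up nearly all of the 23394 assembled transcripts, since the other 468 have 1 exon and no assembled transcript has a gene name. The other 117505 rows carry Ensembl identifiers. The 22926 transcripts belong to 9745 of the 47655 loci in the table, where a locus is a set of transcripts under a shared gene identifier. They divide nearly evenly between the strands, with 11519 on the plus strand and 11407 on the minus strand.

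The skin came from C57BL/6 female mice in 4 groups of 2 samples: wild-type or A20+/-, given PBS or bleomycin, an agent that induces fibrosis, under the skin. The labels call the controls WT, and the paper gives the wild-type mice of this experiment as A20fl/fl. Bleomycin was given at 5 mg/kg on each of 10 injection days, 5 a week, to mice aged 6 to 8 weeks at the start, and skin was taken on day 22, with labelled ages of 9 to 11 weeks. A20+/- mice have 1 intact copy of Tnfaip3, the gene of the ubiquitin-editing enzyme A20, and were bred by crossing A20fl/fl mice with mice whose Cre recombinase is driven by the EIIa promoter, so the loss is not limited to a cell type of the skin. Expression was deposited in 8 columns of FPKM (fragments scaled by transcript length and by the number mapped) headed by codes that no label pairs with a mouse, and these values are not used here. What follows describes the structures and positions of the transcripts. No level, number of expressing samples, depth, effect of A20 or effect of bleomycin is given, and skin markers were not checked. A listed transcript says that reads of the study gave rise to that model and not in which mice. Transcripts of a locus share reads and exons, so they are not independent.

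An assembler joins spliced reads that overlap on the genome into chains of exons, and StringTie does so by taking the most heavily covered paths through a graph of the exons and junctions of a locus. A chain that matches no annotated transcript receives a new identifier, also when it lies in a known gene and differs from the annotated transcripts by a skipped exon, a kept intron or another end. Such a model can be a splice form, a fragment of a longer transcript, a new gene or an error of alignment. Neither of the library kits named for these samples marks the strand of the RNA, and the strand of a spliced model comes from the bases at its splice sites.

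The sequences shown here are RefSeq promoter windows on GRCm38.p6, which run from 250 bases before a gene's start to 50 bases after it, printed 5′ to 3′ on the strand of the gene. They are shown because an assembled transcript starts inside each of them. At Rarres1, Slc39a13 and Nfkb2 that transcript runs the other way, and capitals mark the bases from its start to the RefSeq start of the gene. At Tnfaip3 it runs with the gene and starts at the upstream edge of the window, and capitals mark the 50 bases from the RefSeq start onwards. The windows lie at chr3:67515474-67515773 on the minus strand for Rarres1, chr2:91070266-91070565 on the minus strand for Slc39a13, chr19:46305445-46305744 on the plus strand for Nfkb2, and chr10:19015361-19015660 on the minus strand for Tnfaip3.
Rarres1: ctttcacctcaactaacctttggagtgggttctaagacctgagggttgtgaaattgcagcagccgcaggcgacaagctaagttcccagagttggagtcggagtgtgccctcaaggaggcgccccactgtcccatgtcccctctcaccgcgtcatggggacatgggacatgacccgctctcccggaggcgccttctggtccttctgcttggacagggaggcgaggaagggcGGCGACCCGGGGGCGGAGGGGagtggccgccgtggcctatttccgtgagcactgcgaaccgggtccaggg
Slc39a13: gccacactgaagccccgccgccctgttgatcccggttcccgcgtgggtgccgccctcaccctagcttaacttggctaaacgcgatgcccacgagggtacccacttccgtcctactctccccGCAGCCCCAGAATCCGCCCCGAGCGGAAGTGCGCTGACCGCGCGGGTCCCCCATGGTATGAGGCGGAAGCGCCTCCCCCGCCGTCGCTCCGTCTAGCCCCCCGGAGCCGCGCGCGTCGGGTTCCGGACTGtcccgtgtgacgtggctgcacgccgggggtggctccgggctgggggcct
Nfkb2: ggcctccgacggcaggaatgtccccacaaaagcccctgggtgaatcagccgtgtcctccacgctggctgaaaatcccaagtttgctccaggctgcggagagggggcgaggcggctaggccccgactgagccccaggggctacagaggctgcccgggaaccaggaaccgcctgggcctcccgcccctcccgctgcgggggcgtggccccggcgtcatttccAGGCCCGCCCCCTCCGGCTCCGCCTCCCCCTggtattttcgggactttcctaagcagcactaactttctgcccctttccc
Tnfaip3: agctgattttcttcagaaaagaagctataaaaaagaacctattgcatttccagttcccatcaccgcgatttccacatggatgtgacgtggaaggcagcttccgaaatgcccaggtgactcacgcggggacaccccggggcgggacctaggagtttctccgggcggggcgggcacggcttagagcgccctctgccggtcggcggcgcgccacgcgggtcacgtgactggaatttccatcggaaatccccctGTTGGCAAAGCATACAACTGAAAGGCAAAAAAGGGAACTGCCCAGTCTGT

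The assembled transcripts were longer and had more exons than the spliced Ensembl transcripts listed beside them. Their median was 8 exons, with the middle 50% of values from 5 to 14, against a median of 5 and a range of 3 to 9 for the same share of 95189 Ensembl transcripts. Exactly 2 exons were found in 8.87% of the assembled set and 18.1% of the Ensembl set, and 20 or more exons in 15.0% and 6.46%. Spliced length, the sum of the exons, had a median of 2601 bases against 1328, and ran from 200 to 102202 bases. The stretch of genome from the first exon to the last had a median of 21462 bases against 11397. These are counts over whole sets of models and no test was made between them.

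**Figure D1:**
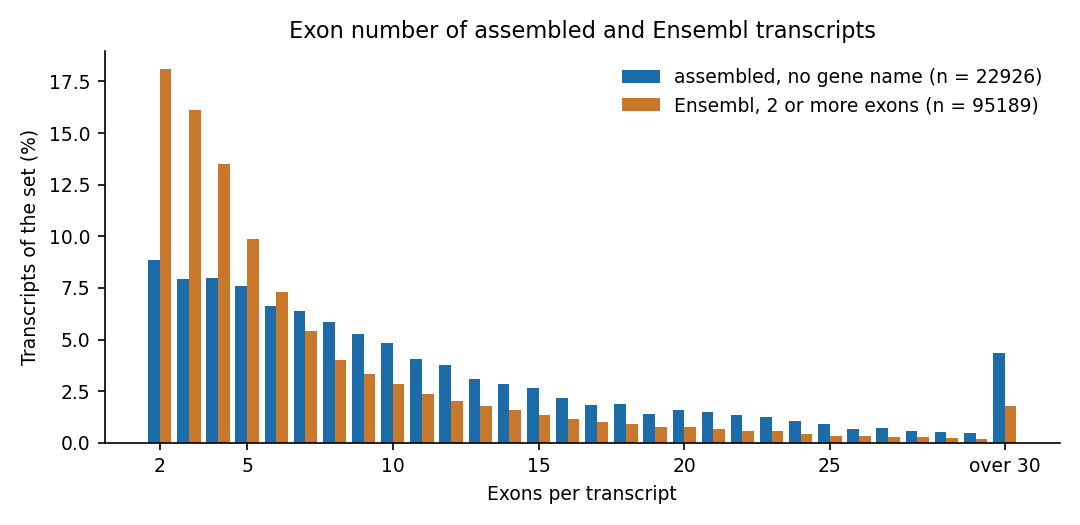
Exon number per transcript (horizontal axis, with all values over 30 in the last bar) against the share of each set in percent (vertical axis). Bars are the 22926 assembled transcripts without a gene name and the 95189 Ensembl transcripts with 2 or more exons, and the assembled set has the smaller share at 2 to 6 exons and the larger one at every exon number from 7 on.

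The lengths carry a shift that can be read on the Ensembl rows. For all 110396 Ensembl transcripts that are also in GENCODE M21, the left-hand end on the chromosome was the same base in the deposited table and in GENCODE. The right-hand end was the same in 59.5% and lay further out in 44727 (40.5%), by a median of 80 bases and at most 21585, and it never lay further in. In 99.9% of those the spliced length had grown by the same number of bases. None of the 28356 transcripts in loci with an Ensembl identifier had moved, against 54.5% in loci with a StringTie identifier. Within the latter loci, ends had moved in 64.9% of transcripts where the locus also held an assembled spliced transcript and in 39.7% where it did not. Over 89081 spliced transcripts the median length was 1268 bases as deposited and 1047 in GENCODE. The right-hand end is the 3′ end of a plus-strand transcript and the 5′ end of a minus-strand one. The right-hand ends of the assembled transcripts were the very base of a GENCODE end of the same kind in 33.2% on the minus strand (5′ ends) and 45.6% on the plus strand (3′ ends). How far their other right-hand ends, and their lengths, carry the shift was not tested. Exon number was the same as in GENCODE for 110159 of the 110396 Ensembl rows (99.8%).

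**Figure D2:**
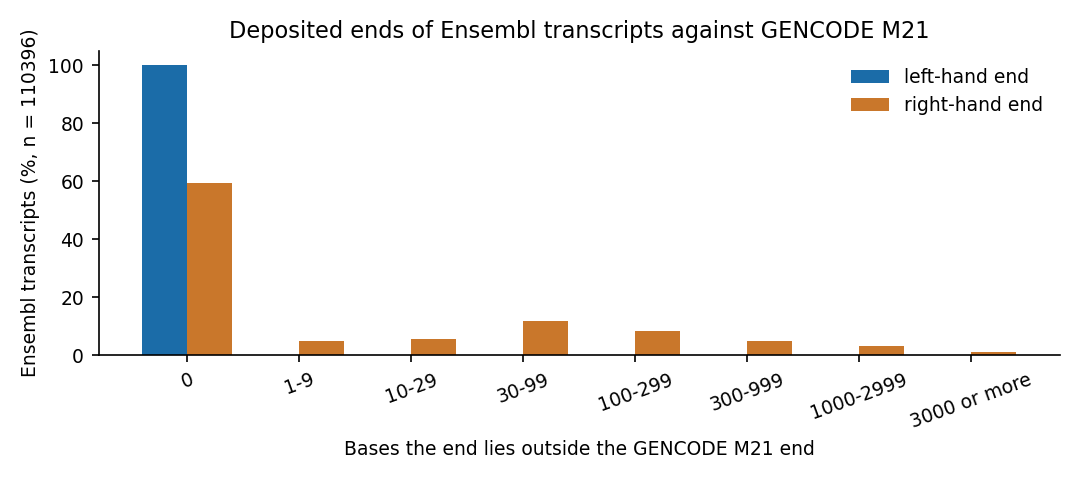
Distance in bases by which the deposited end of an Ensembl transcript lies outside its GENCODE M21 end (horizontal axis) against the share of 110396 transcripts in percent (vertical axis), for the left-hand and right-hand ends on the chromosome. All left-hand ends are in the bar at 0, and 40.5% of the right-hand ends are spread over the bars above 0.

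Most of the assembled transcripts lay in known genes. On the same strand as a named gene of the table, with an overlap of at least 1 base, were 21797 (95.1%) in 8966 loci. By the named gene whose span matched best, 94.8% of these lay in protein-coding genes and 3.02% in long non-coding ones. On the opposite strand only were 350 (1.53%), and 779 (3.40%) overlapped no named gene. These classes differed in build. The same-strand transcripts had a median of 9 exons and 2723 bases, and 5.79% of them had exactly 2 exons. The opposite-strand transcripts had a median of 2 exons and 397.5 bases, with 74.3% at exactly 2 exons. Those that met no named gene had a median of 2 exons and 518 bases, with 65.6% at exactly 2 exons.

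For counts by gene, each same-strand transcript was credited to 1 named gene, that of the Ensembl transcript whose span matched its own best. In this way 8652 of 21775 protein-coding genes (39.7%) were credited with at least 1 assembled transcript. Other genes that a transcript overlapped were not counted through it, so genes with an overlap can be more numerous. Loci with a single one numbered 4553 (46.7%), the median locus held 2, and the 134 loci with 10 or more held 2115 transcripts (9.23% of all).

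The left-hand ends, which the shift spares on the Ensembl rows, were often close to annotated ones. For plus-strand transcripts the left-hand end is the 5′ end, and it was the very base of a GENCODE 5′ end in 20.5% and within 50 bases of one in 56.0%, while 23.4% began over 1000 bases from any. For minus-strand transcripts it is the 3′ end, and the corresponding shares were 24.7%, 60.5% and 17.5%. The median distance was 29 bases for the 5′ ends and 16 bases for the 3′ ends. An annotated end of the same kind thus lay within 50 bases for most of them on both strands.

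Both ends were those of an Ensembl transcript of the table in 1492 (6.51%), so that these differ from it inside. Where several spliced Ensembl rows share both ends, the one with most exons, then the longest, was the row compared. Of the 1492, 503 had fewer exons than that row, 534 the same number and 455 more. Other rows with the same ends were not compared. Among them, 277 had 1 exon fewer and were shorter, which is the form a skipped exon takes, with a median loss of 116 bases. The loss was a multiple of 3, which keeps a reading frame, in 136 of the 277 (49.1%). For comparison, 40.4% of 180236 internal exons of GENCODE protein-coding transcripts have a length that is a multiple of 3. A further 108 had 1 exon fewer and were longer, the form that a kept intron takes, with a median gain of 303 bases. The table gives no inner exon positions, so these forms were read from exon number and length alone. Only 5 assembled transcripts had the start, end, exon number and length of a GENCODE M21 transcript. They lay at Ppp1r16a, Kctd20 and Rnf111, whose GENCODE counterparts are not rows of the table, and at Tmem131l and Pold3, whose counterparts are.

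The gene that the A20+/- mice lack on 1 chromosome held 2 assembled transcripts beside 6 Ensembl ones. MSTRG.1997.1, at chr10:19000910-19014582 on the minus strand, has 9 exons and 4345 bases. It shares its 3′ end with ENSMUST00000019997.10, which also has 9 exons, and begins 828 bases further downstream, at the 5′ end of ENSMUST00000146388.1, and is 77 bases shorter in all. MSTRG.1997.5, at chr10:19000948-19015657, has 8 exons and 5367 bases. It begins 247 bases upstream of ENSMUST00000019997.10, at the 5′ end of the short transcript ENSMUST00000122863.1, and ends 38 bases before its 3′ end, and it is 945 bases longer. Each is thus listed with the annotated 5′ end of a short Tnfaip3 transcript and spans the body of the gene. These 5′ ends are right-hand ends, the kind that the shift moves on the Ensembl rows. At this gene 5 of the 6 Ensembl rows have the right-hand end of GENCODE. That of ENSMUST00000154590.1 lies further out, at 19015410 against 19015376, which is the end of ENSMUST00000019997.10. Whether the 5′ ends of the 2 assembled transcripts were moved in this way was not tested. The RefSeq window printed above holds 22 CG pairs, TATAAA and GGGCGG, and not CCAAT.

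A list of 22 genes was looked up, chosen after earlier results were known: Tnfaip3, Kcnip3, genes of NF-κB signalling, adiponectin and fibrosis, and 4 genes of the Y chromosome. Of these, 5 were credited with no assembled transcript on their strand. They were Nfkb1 and Nfkb2, which encode NF-κB subunits, Adipoq, the gene of the fat hormone adiponectin, Spp1, that of osteopontin, and Eif2s3y on the Y chromosome. Kcnip3, which encodes the transcriptional repressor DREAM, had 1, of 4 exons and 369 bases, against an Ensembl maximum of 9 exons. Tnip1, whose product binds A20, had 2, of 8 and 10 exons. Adipor1 had 1 of 7 exons, and Adipor2, which encodes a second adiponectin receptor, had 2 of 8 and 9 exons.

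Among the matrix genes, Col1a1, which encodes a chain of type I collagen, had 4, with 47 to 52 exons against an Ensembl maximum of 51, and lengths of 5541 to 5891 bases. Col1a2, the other chain of type I collagen, had 3 of 49 to 54 exons, and Col3a1, for type III collagen, had 2 of 50 and 51. Fn1, which encodes fibronectin, had 5. Of these, 4 were nearly full length at 44 to 46 exons and 7731 to 8286 bases, and the fifth had 21 exons and 4189 bases.

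Tnc, which encodes tenascin-C, a matrix protein with a run of fibronectin type III repeats that are spliced in or out, had 7 assembled transcripts of 21 to 27 exons and 5733 to 7373 bases, against 26 exons at most in Ensembl. Of its 25 internal GENCODE exons, 6 are 273 bases long, the commonest length. Of the transcripts that share both ends, MSTRG.15807.6 exceeds MSTRG.15807.5 by 1 exon and 273 bases. MSTRG.15807.7 exceeds MSTRG.15807.6 by 3 exons and 819 bases. In another set with shared ends, MSTRG.15807.9 exceeds MSTRG.15807.10 by 2 exons and 543 bases. MSTRG.15807.8 has as many exons as MSTRG.15807.9 and 3 bases more. From MSTRG.15807.10 to MSTRG.15807.8 the step is a whole number of 273-base exons. Between neighbours in length, 2 of the 3 steps that change exon number were thus a whole number of such exons in length. Other pairs with shared ends were not counted.

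Some loci held many assembled transcripts. Ahnak, which encodes a giant scaffold protein, had 121 at chr19:8989267-9076935, and Neb, which encodes nebulin of the muscle thin filament, had 55. Tnxb, for the matrix protein tenascin-X, had 40, and Krt78, a keratin gene, had 37. Below them, chosen after their values were seen, came Plin4 with 34 and Ogfr with 30.

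At Ahnak the assembled transcripts had 6 to 11 exons and 1171 to 14463 bases. The longest Ensembl transcript there has 5 exons and 18099 bases, and the other has 6 exons and 1062 bases. Hence 119 of the 121 had more exons than any Ensembl Ahnak transcript, and all 121 were shorter than the longest. They used only 6 left-hand ends, and 87 had the right-hand end of the longest Ensembl transcript. They thus resemble each other in ends and differ in how much of the inside is listed as spliced out.

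At Neb exon number ran from 13 to 154 and length from 1253 to 22354 bases, within the range of the Ensembl transcripts, which reach 157 exons and 22489 bases. Most lay on a line of rising length with rising exon number. Tnxb had 7 to 42 exons against an Ensembl maximum of 41. Krt78 had 10 to 14 exons and 2443 to 3527 bases, against 9 exons in its Ensembl transcript, which has 3698 bases as deposited and 3437 in GENCODE. Every assembled form of Krt78 thus had more exons than the Ensembl one, and the longest had fewer bases than it as deposited but more than in GENCODE.

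**Figure D3:**
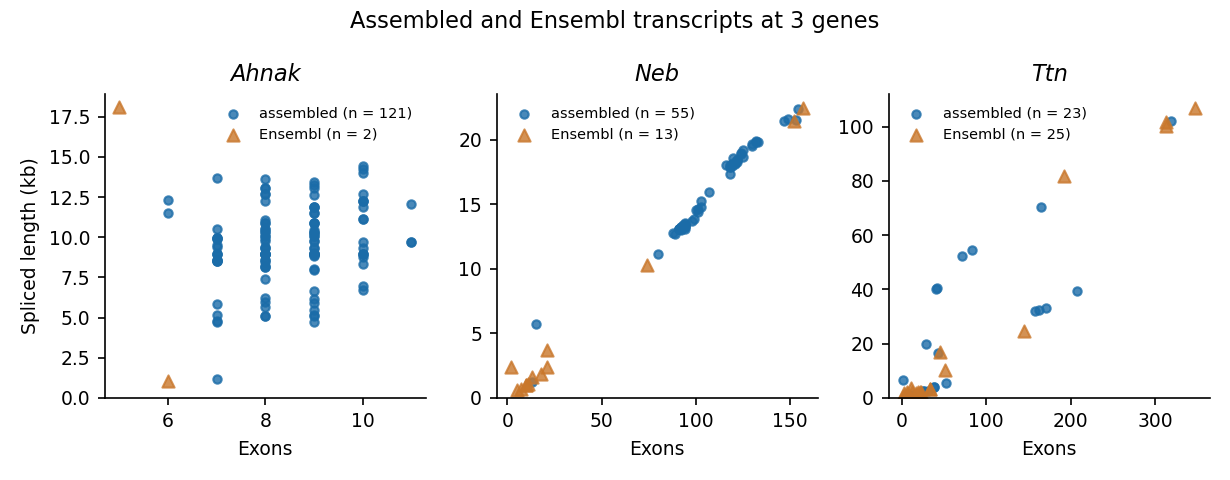
Exon number (horizontal axis) against spliced length in kb (vertical axis) for each assembled and Ensembl transcript of Ahnak, Neb and Ttn. At Ahnak the assembled transcripts have 6 to 11 exons and all lie below the Ensembl transcript of 18099 bases, while at Neb length rises with exon number in both sets.

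The longest GENCODE transcript of genes with many assembled transcripts was laid over itself at each shift from 30 to 1200 bases, and the share of matching bases was counted. The best shift matched 57.8% of bases for Krt78, at 33 bases, 49.9% for Plin4, at 297 bases, and 45.0% for Ahnak, at 384 bases. It matched 41.4% for Neb, at 729 bases, and 32.7% for Tnxb, at 645 bases. For Ncor1 and Tacc2 it matched 28.4% and 28.9%, against medians over shifts of 25.5% and 25.1%. The best shift is a maximum over many, so it lies above the median for any sequence. The part of such repeats in the number of assembled forms was not tested.

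Length steps in frame were frequent in these genes. Over all sets that share both ends, 1116 of 2077 shorter transcripts (53.7%) fell short of the longest of their set by a multiple of 3. The counts were 96 of 96 at Ahnak, 28 of 28 at Krt78, 18 of 18 at Tnxb and 29 of 30 at Neb. At Ncor1 and Tacc2, whose best shift was close to the median, they were 14 of 15 and 8 of 8. They were 8 of 21 at Plin4 and 3 of 7 at Firre, which encodes a long non-coding RNA. Outside the 12 genes with most assembled transcripts, 832 of 1770 (47.0%) were multiples of 3.

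The models with most exons were all at Ttn, the gene of the giant muscle protein titin, with 319, 207, 171, 165 and 162 exons. The first, MSTRG.12696.1, is also the longest at 102202 bases, against 347 exons and 106916 bases in the largest Ensembl Ttn transcript. The next 4 in length, of 70403, 54624, 52313 and 40535 bases, are at Ttn too. The widest stretches of genome were 1459564 bases by MSTRG.6764.4 at Fhit, 1202295 by MSTRG.19448.5 at Ccser1, 1041278 by MSTRG.23610.1 at Cdh13, 937544 by MSTRG.3307.3 at Tenm2 and 900934 by MSTRG.11913.1 at Etl4. The Fhit model covers its stretch with only 9 exons and 721 bases.

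Gene families of the skin and of immunity were counted by symbol prefix over genes with a spliced Ensembl transcript. Each assembled transcript was again credited to 1 gene only. Over all named genes, 9050 of 28954 (31.3%) had an assembled transcript, and over protein-coding genes 8600 of 19607 (43.9%). The group of integrins and laminins, which anchor cells to the matrix, had one in 29 of 42 genes (69.0%). Being formed by symbol prefix, it also holds other genes, such as Itgb1bp2. Collagens had one in 24 of 45 (53.3%) and keratins in 26 of 54 (48.1%). Interleukins and their receptors had one in 37 of 83 (44.6%), Hox cluster genes in 16 of 43 (37.2%) and chemokines in 14 of 38 (36.8%). Olfactory and vomeronasal receptors, used in the nose, had one in 1 of 536 (0.187%). These shares were not tested against each other, and expression, length and exon number were not held equal.

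Within these families Krt10, a keratin of the upper epidermis, had 9 assembled transcripts of 8 or 9 exons against 8 in Ensembl. Itgb4, whose product is part of the hemidesmosome, had 5 of 38 to 40 exons. Cxcl16, a membrane-bound chemokine, had 8 of 6 or 7 exons, and Il18, a cytokine of the inflammasome pathway, had 7 of 3 to 7 exons against 5 in Ensembl. Keratin-associated protein genes, which form hair, mostly have 1 exon. None of the 5 with a spliced Ensembl transcript was credited with an assembled one, and 5 of the other genes among the 57 were. Of these, Krtap27-1 had 2 assembled transcripts and Krtap12-1, Krtap19-2, Krtap3-2 and Krtap4-7 had 1 each, all with 2 exons against 1 in Ensembl. MSTRG.4397.1 spans both Krtap4-2 and Krtap4-7 on their strand. The credit to 1 gene leaves Krtap4-2 uncounted.

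Some transcripts reached over neighbouring genes. The stretch of 528 (2.30%), in 269 loci, held 2 or more separate protein-coding genes of their strand, and that of 92 held 3 or more. In 182 of the 528 (34.5%), and in 69 of the 92, 2 or more of the genes shared a symbol stem. The stem was read from the symbol alone and is not a count of gene families. Ercc1 and Ercc2 were counted as sharing one, and H2-D1 and H2-Q1 were not. At least 2 keratin genes were spanned by 35 and at least 2 myosin heavy chain genes by 36. MSTRG.8413.13 at chr15:101707065-101850786, on the minus strand, runs from Krt1 to Krt5 over 6 keratin genes with 10 exons and 2164 bases. MSTRG.4431.1 at chr11:100131758-100261029, on the minus strand, runs from Krt17 to Krt15, also over 6 keratin genes, with 9 exons and 1652 bases. MSTRG.3707.5 at chr11:67171114-67367735 runs from Myh2 to Myh13 over 5 myosin genes with 36 exons and 5652 bases. Which genes supply the exons was not read, since inner exons are not listed, and the part of sequence shared within a family was not tested.

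Of the 779 transcripts that met no named gene, 68 lay on 11 unplaced or unlocalized scaffolds, where the table lists no Ensembl transcript at all. The other 711, in 519 loci, lay on chromosomes. Of these, 268 were within 5 kb of a named gene, 356 (50.1%) within 10 kb and 617 within 50 kb, while 94 were further away. The median distance was 9982 bases and the largest 328736. The nearest gene was on the same strand for 336 (47.3%). By at least 1 base, 495 (69.6%) overlapped a RefSeq gene on either strand, 316 of them a long non-coding one, and 256 (36.0%) a GENCODE M21 gene. That left 190 transcripts in 148 loci, with a median length of 461.5 bases, that met no gene of the table, of GENCODE M21 or of RefSeq, of which 25 had 3 or more exons.

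**Figure D4:**
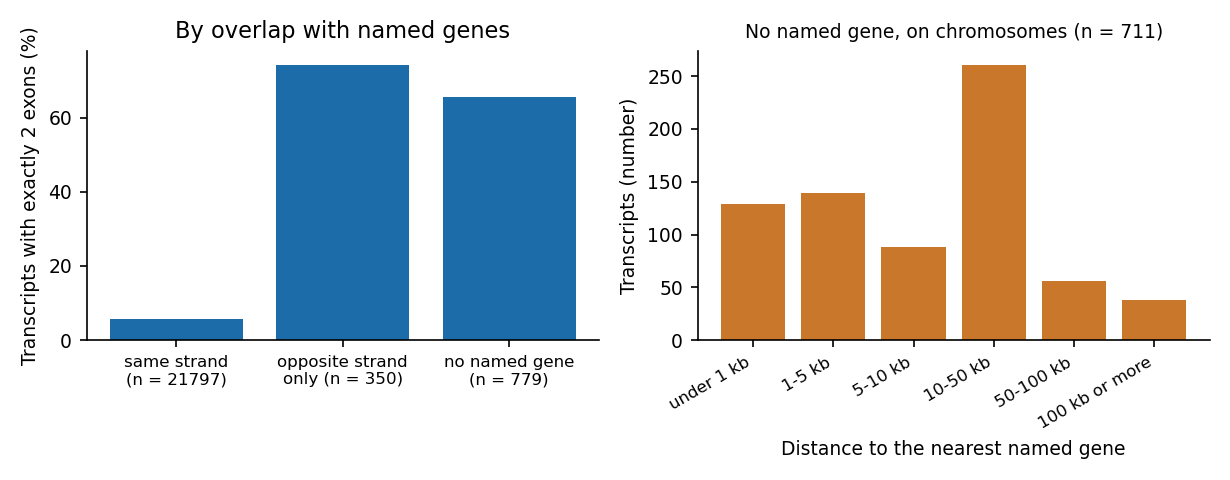
Left, share of transcripts with exactly 2 exons in percent (vertical axis) for those on the strand of a named gene, on the opposite strand only, and on no named gene. Right, number of transcripts (vertical axis) by distance to the nearest named gene (horizontal axis) for the 711 on chromosomes that meet none, of which 129 lie under 1 kb and 38 lie 100 kb or more away.

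Among all transcripts without a named gene the most exons were 12, in MSTRG.17026.1, MSTRG.17032.1 and MSTRG.25225.1 on scaffolds. On the chromosomes the most were in MSTRG.1907.1 at chr10:5204128-5221974, with 11 exons and 1800 bases, inside Syne1 by RefSeq although the Syne1 transcripts of the table end 114975 bases away. It is followed there by MSTRG.5180.1 with 8 exons and MSTRG.24609.1 with 7. Where none of the 3 annotations had a gene on the chromosomes, the most exons were 4, as in MSTRG.16138.4 at chr4:114113697-114125356, of 1296 bases. Of all those without a named gene, 7 lay within 10 kb of a skin or immune family gene. MSTRG.4253.1 lay 142 bases from Hoxb7 and MSTRG.15530.2 lay 949 bases from the chemokine gene Ccl27b, as these genes are listed in the table. By RefSeq, each overlaps that same gene. MSTRG.8398.1 lay 1698 bases from Krt83, MSTRG.8395.3 lay 3231 from Krt80 and MSTRG.8395.4 lay 5258 from Krt7. MSTRG.6719.1 lay 7505 from Ccl28 and MSTRG.15529.1 lay 8250 from Il11ra2.

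Of the 350 transcripts on the opposite strand, 299 (85.4%) lay over a protein-coding gene and 237 (67.7%) fell wholly inside the gene. With libraries that do not mark strand, reads in shared exons cannot be told apart between the strands. Among the 350, 8 lay over a skin or immune family gene, and all 8 had 2 exons and 251 to 567 bases. They lay over Col13a1, Col14a1, Krt80, Krtap1-4, Krtap3-2 and Krtap9-1, with 1 each, and Hoxc9, with 2. The most exons among the 350 were 8, in MSTRG.5175.1 over Fam177a, followed by 6 in MSTRG.14456.1 over Smcp, which encodes a sperm mitochondrial protein.

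Some assembled transcripts started close to a gene on the other strand. A start within 1000 bases of that of an Ensembl transcript on the other strand was found for 158 assembled transcripts in 126 loci that lay off the strand of named genes. The gene was protein-coding for 132 (83.5%), 123 (77.8%) had 2 exons, and 33 (20.9%) started within 100 bases. The median distance between starts was 250 bases. The paired transcripts overlapped in 41 (25.9%) and ran apart without overlap in 117 (74.1%). Of the 158, 86 (54.4%) lay over a named gene on the other strand. These include some that ran apart from their pair, such as MSTRG.24410.1 at Anp32a.

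The 10 closest to protein-coding genes had starts 1 to 27 bases from the gene's as deposited. Of these, 7 had the same distance to the GENCODE start, Cyhr1 and Rarres1 did not, and the Scaf8 transcript had no GENCODE start to compare. Among the 7, the gene start at Anp32a, Trabd2b and Rnf4 is a left-hand end, and such ends never moved. The match there was fixed in advance, and the assembled start, a right-hand end, was not compared. At Fbxl18, 9230102O04Rik and Slc39a13 the gene start is a right-hand end and had not moved. The nearest was MSTRG.8009.1, 1 base from Cyhr1 as deposited and 56 from its GENCODE start, where the right-hand end of Cyhr1 lies at 76656977 in the table and 76656920 in GENCODE. MSTRG.18811.1 started 3 bases from Fbxl18, whose product selects proteins for ubiquitination, and MSTRG.9284.1 started 6 from Scaf8. MSTRG.14154.1 at chr3:67515543-67520140, of 2 exons and 552 bases, started 7 bases from Rarres1, a gene induced by retinoic acid, as deposited and 20 from its GENCODE start. MSTRG.24410.1 started 8 bases from Anp32a, MSTRG.16145.1 started 11 from Trabd2b, and MSTRG.17400.2 and MSTRG.17400.1 started 12 and 26 from Rnf4, a ubiquitin ligase gene. MSTRG.11798.1 started 23 bases from 9230102O04Rik. MSTRG.12669.1 at chr2:91070444-91071268 started 27 bases from Slc39a13, which encodes a zinc transporter. Chosen after its value was seen, MSTRG.11593.1 at chr19:46304779-46305665 started 30 bases from Nfkb2 as deposited, with no GENCODE start to compare. It is a minus-strand transcript of 2 exons and 630 bases, so its start is a right-hand end.

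The gene had a RefSeq window for 98 of the 158, and for 41 of these the start lay in it, which gave 34 windows of 300 bases. CG pairs numbered 21 at the median, against 7 over all 32851 RefSeq windows. GGGCGG, the core of a GC box, was found on either strand in 23 of the 34 (67.6%), against 35.7% of all windows. TATAAA was found in 14.7% against 13.6%, and CCAAT in 26.5% against 37.4%. Each motif was searched on both strands, and none of the 3 contains another. The windows of Rarres1, Slc39a13 and Nfkb2 hold 19, 36 and 20 CG pairs and GGGCGG, and neither TATAAA nor CCAAT. A match is a string of letters and not a site of binding, and these shares were not tested.

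By chromosome, the highest number of assembled transcripts lay on 11, with 1974 (8.61%), then on 2, with 1750 (7.63%), and 7, with 1665 (7.26%). The same chromosomes held 7.87%, 9.10% and 9.76% of the spliced Ensembl transcripts. Chromosome X held 590 (2.57%), against 3.77% of the Ensembl ones. Chromosome Y held 29, although the labels give female mice for all groups. The reporting form of the paper names both sexes for its mouse work as a whole. MSTRG.26072.1, on the strand of Uty, has 29 exons and 7541 bases, against an Ensembl maximum of 28 exons. MSTRG.26066.1, on the strand of Ddx3y, has 17 exons and 4713 bases, and Ensembl also reaches 17 exons there. MSTRG.26065.5 at Kdm5d has 2 exons and 429 bases. Another 24 of the 29 lay together at the far end of the chromosome, from 90736810 on, where it carries sequence shared with X. From which libraries these models came was not tested.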

How the data were processed

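RNA of 8 skin samples was sequenced. The authors deposited 1 table of transcripts, whose start, end, exon number and length columns are positions in bases, counts of exons and sizes in bases (unit: other). The submitters' processing notes name HISAT2 2.1.0, StringTie 2.0.6 and mm10, without their roles. The table's 8 columns of per-sample FPKM values are headed by codes matched to no sample and are not used here. The planned limma comparison was therefore not run, and no depth is given.

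Coordinates are 1-based and equal those of GENCODE M21 on GRCm38 at every shared left-hand end. Overlap needed 1 base. Symbols came from the table, gene types from GENCODE M21, other genes and promoter windows from RefSeq. Interval functions were tested on simulated intervals. Named transcripts were the 5 with most exons, length or span, the 5 fullest loci (1 of them is not reported here), the 10 closest head to head with protein-coding genes, and those near listed skin or immune genes or Tnfaip3. Others, such as those at Tnc, over several genes, on no named gene or on chromosome Y, were chosen after their values were seen. Members and lists were chosen with earlier results of these data known. Rows are models, not replicates, so values are descriptions without tests. Python 3.11.15, numpy 2.4.6, pandas 2.3.3, scipy 1.17.1 and matplotlib 3.10.9 were used.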

Additional observations from a re-analysis of the deposited data

How the results depend on the processing

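The number of transcripts was 1187 when only loci without a named transcript were counted. The median spliced length was 2791 bases with 3 or more exons required, 2708 for plus-strand and 2492 for minus-strand transcripts. The share with exactly 2 exons was 12.4% with 1 transcript per locus and 65.6% among those overlapping no named gene. The same-strand share was 96.3% with GENCODE M21 genes and 92.0% with 1 transcript per locus, which put the opposite-strand share at 2.68%. The share overlapping no named gene was 2.30% with GENCODE M21 genes, 5.36% with 1 transcript per locus, 6.83% with protein-coding genes only and 3.11% on chromosomes only. Within 10 kb of a named gene without overlap lay 1.55% of all, against 1.17% within 5 kb and 2.69% within 50 kb. Head-to-head counts were 112 at 500 bases, 202 at 2000 bases and 121 with GENCODE M21 transcripts. The splits by strand, the share among those overlapping no named gene, the chromosomes-only share and the GENCODE head-to-head count were chosen after seeing the data. Alternatives for the FPKM comparisons, and a count of poly(A) signals that needs genome sequence not used here, were not run. No paired analysis was possible because the value columns were matched to no sample. Models from libraries of unknown depth may miss or truncate transcripts of low abundance.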
